A study of Mus musculus with 4 samples.

Results

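The regions described here are places in the genome where 2 of 3 TIMELESS ChIP-seq libraries of adult C57BL/6N mouse hippocampus, replicates 1 and 2, both had a peak and replicate 3 had none. In ChIP-seq, formaldehyde-fixed chromatin is sheared, the fragments held by an antibody are sequenced, and peaks are the places where fragments accumulate. The members were chosen by merging overlapping peaks of the 3 TIMELESS libraries on chromosomes 1 to 19 and keeping regions with peaks of replicates 1 and 2, no peak of replicate 3 and no overlap with a peak of the input, which is sheared chromatin sequenced without an antibody. There were 1210 such regions among 97631 merged regions, or 1.24%, and they made up 27.7% of the 4369 regions where replicates 1 and 2 both had a peak outside input peaks. The other 3159 of these regions held a peak of replicate 3 as well and are called regions of all 3 replicates. Because the peak calls of these libraries chose the members, widths, pileups and folds are given as a description, with no test. Regions of the same libraries are not replicates, so differences in position are given with exact binomial (Clopper-Pearson) 95% intervals, which cover counting error only, and no test was made.

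All 4 libraries came from the same tissue and strain, with no treatment named in the labels, and the labels give the antibody as the only difference between groups, used in the 3 TIMELESS libraries and not in the 1 input. The labels do not say that the TIMELESS libraries came from separate animals, and hippocampus is a mixture of cell types that was not sorted. After removal of duplicate positions the peak caller kept 8425679, 13572739 and 30454118 tags in replicates 1, 2 and 3 and 14669253 in the input, and on chromosomes 1 to 19 it called 6875, 23058 and 82454 TIMELESS peaks and 282 input peaks. One library goes against its label: the peak list of TIMELESS replicate 3 carries in its header the name of a second input. Sites without a call in a TIMELESS library and sites without a call in an input therefore cannot be told apart here, and replicate 3 below means the library labelled so. Without it, merging replicates 1 and 2 gave 4336 regions outside input peaks, of which 29.7% lay in protein-coding genes and 0.807% within 1 kb of the end of one.

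TIMELESS is known as a partner of TIPIN at the replication fork, where it steadies stalled forks, and it is also linked to the mammalian circadian clock through cryptochrome proteins. Fixation also captures DNA that a protein reaches through its partners, so a peak is not by itself a bound motif. Peaks here were called in each library on its own, without the input, and a peak in replicates 1 and 2 records that both libraries piled up reads at 1 place.

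Of the members, 1 overlapped a RefSeq promoter window, which runs from 250 bases before to 50 bases after a gene's start. The windows covered 1168 members and 3038 regions of all 3 replicates. The single window was that of the predicted protein-coding gene Gm31160 (chr5:137179115-137179414, minus strand, RefSeq, GRCm38.p6), and 272 of its 300 bases lay in the member chr5:137179143-137179996. That member had a pileup of 8 in replicate 1 and 16 in replicate 2, with folds of 3.93 and 5.54. Of the regions of all 3 replicates, 5 overlapped a window. Among them are those of Fam214b (chr4:43046171-43046470, minus strand) and of the predicted gene Gm51571 (chr8:55114679-55114978, plus strand), shown for comparison. The sequences run 5′ to 3′ on the gene's strand, and capitals mark the bases inside the merged region.
Gm31160: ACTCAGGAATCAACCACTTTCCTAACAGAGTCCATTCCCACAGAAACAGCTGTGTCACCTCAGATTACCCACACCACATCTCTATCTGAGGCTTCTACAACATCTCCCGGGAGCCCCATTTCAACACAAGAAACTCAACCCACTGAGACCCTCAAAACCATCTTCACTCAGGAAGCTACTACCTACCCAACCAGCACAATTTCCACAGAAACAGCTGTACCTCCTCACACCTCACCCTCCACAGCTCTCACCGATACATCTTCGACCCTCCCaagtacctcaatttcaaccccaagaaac
Fam214b: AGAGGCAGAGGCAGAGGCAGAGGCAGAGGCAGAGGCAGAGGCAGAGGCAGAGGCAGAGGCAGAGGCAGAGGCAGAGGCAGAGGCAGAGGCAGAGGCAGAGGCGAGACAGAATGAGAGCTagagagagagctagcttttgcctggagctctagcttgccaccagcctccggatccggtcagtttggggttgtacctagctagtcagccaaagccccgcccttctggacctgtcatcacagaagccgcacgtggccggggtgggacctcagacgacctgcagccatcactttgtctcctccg
Gm51571: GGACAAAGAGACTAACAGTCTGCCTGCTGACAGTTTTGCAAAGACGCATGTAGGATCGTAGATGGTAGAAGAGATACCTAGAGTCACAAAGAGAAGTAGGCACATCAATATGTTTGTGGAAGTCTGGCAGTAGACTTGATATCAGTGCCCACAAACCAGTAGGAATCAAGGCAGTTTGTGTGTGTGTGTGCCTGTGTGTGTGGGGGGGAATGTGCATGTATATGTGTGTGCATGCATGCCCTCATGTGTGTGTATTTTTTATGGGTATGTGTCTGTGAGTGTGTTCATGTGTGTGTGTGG
The capitals of Gm31160 hold 2 copies of a stretch of 16 bases, CCACAGAAACAGCTGT, and 5.81% of 31396 promoter windows hold an exact repeat at least that long, against a median of 9 bases. In Fam214b the longest repeated stretch was 96 bases, in overlapping copies of a tandem AGAGGC repeat, a length that 0.0796% of windows reach. In Gm51571 it was 12 bases of alternating T and G, a length that 15.3% of windows reach. Only the Fam214b window, outside its capitals, held the E-box CACGTG bound by clock proteins, which 7.14% of all windows hold. None of the 3 held the letters TGACG of the cAMP response element, which 21.0% of all windows hold on either strand. The Gm31160 window was 49% G and C with 3 CG pairs, against a median of 53% and 7 pairs over all windows. No other sequence of a member is printed, since no genome sequence was used here.

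Some members lay at the edges of the rule. The smallest gap between a member and a replicate 3 peak was 2 bp, at chr6:117793035-117793468, where replicate 1 had a pileup of 10 and a fold of 3.47 and replicate 2 a pileup of 13 and a fold of 3.60. Just outside the rule, the region chr16:82916325-82916954 met a replicate 3 peak over 10 bp, with folds of 4.41, 4.28 and 2.62 in replicates 1, 2 and 3. Most members were not near this edge, since 1187 of 1210 had no replicate 3 peak within 100 bp. In 54 members the peaks of replicates 1 and 2 overlapped by under 100 bp, and the median overlap was 283 bp. The rule on the input left out 3 regions, all between positions 3013972 and 3021174 of chromosome 9. These had pileups of 496 to 537 in replicate 1 and 498 to 525 in replicate 2 with folds of 1.37 to 1.64, and the input peaks there had pileups of 354 to 379. A member beside them, chr9:3009331-3009886, had pileups of 429 and 449 and folds of 1.52 and 1.38, and stood apart from the other members.

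Peaks at the members were lower than in regions of all 3 replicates. The pileup, the number of fragments over the summit, had a median of 12 in replicate 1 (95% interval 12 to 13) and 15 in replicate 2 (15 to 15), against 15 and 20 in regions of all 3 replicates, where replicate 3 had 35. Per 1000000 tags kept, the medians were 1.42 and 1.11 at the members and 1.78, 1.47 and 1.15 in regions of all 3 replicates. The fold, the pileup relative to the local background that the peak caller estimated in that library, had a median of 4.81 in replicate 1 and 4.49 in replicate 2 at the members. In regions of all 3 replicates it was 5.18 and 5.31, with 4.11 in replicate 3. Such values were not particular to the members. In the 687 regions of replicates 1 and 3 without replicate 2, replicate 1 had a median pileup of 12 and a median fold of 4.77. In the 5915 regions of replicates 2 and 3 without replicate 1, replicate 2 had a median pileup of 16 and a median fold of 4.32. Replicate 1 had the higher fold in 63.2% of members and in 48.4% of regions of all 3 replicates. Both folds reached 5 in 259 members, or 21.4%, and in 1344 regions of all 3 replicates, or 42.5%.

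**Figure D1:**
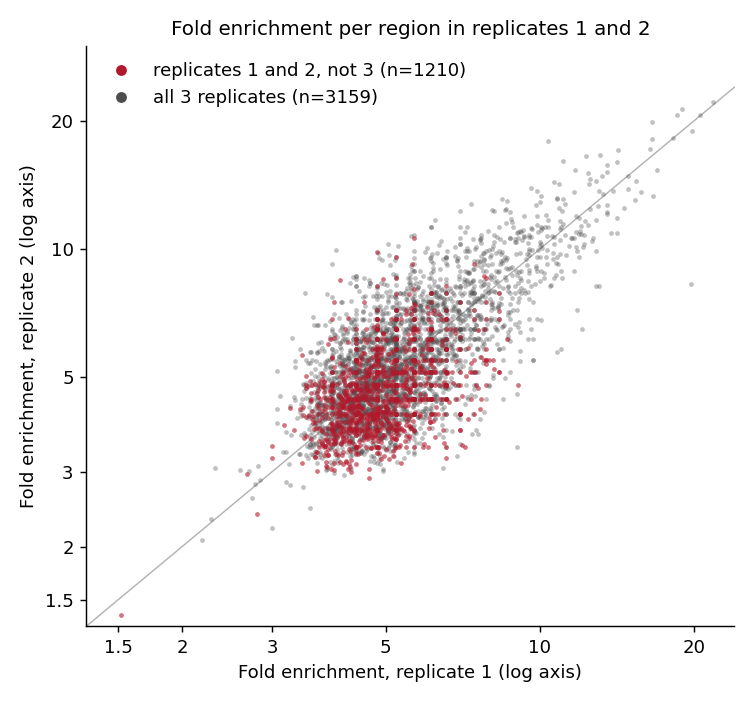
Fold enrichment of each region in replicate 1 (horizontal, log axis) and replicate 2 (vertical, log axis), for 1210 regions of replicates 1 and 2 without 3 and 3159 regions of all 3 replicates. The line marks equal folds. The smaller of the folds reaches 7.87 at most in the first group, and 245 of the regions of all 3 replicates lie above that value.

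Members thinned out as the peaks of replicates 1 and 2 grew stronger. Taking the smaller of the 2 folds, 39.0% of regions under 3.5 lacked a replicate 3 peak (103 of 264), 35.1% of those from 4 to 4.5 (351 of 999), 24.2% of those from 5 to 6 (207 of 855) and 5.07% of those from 7 to 8 (7 of 138). At 8 or more none of 231 did, with an exact interval of up to 1.58%. The largest smaller fold of a member was 7.87, and 245 regions of all 3 replicates exceeded it. The folds of replicates 1 and 2 were also less closely related at the members. Across the 1210 members Spearman's rho was 0.417 and Pearson's r 0.406, against 0.626 and 0.776 across the 3159 regions of all 3 replicates. These are descriptions across regions that share libraries, and the members span a narrower range of folds.

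**Figure D2:**
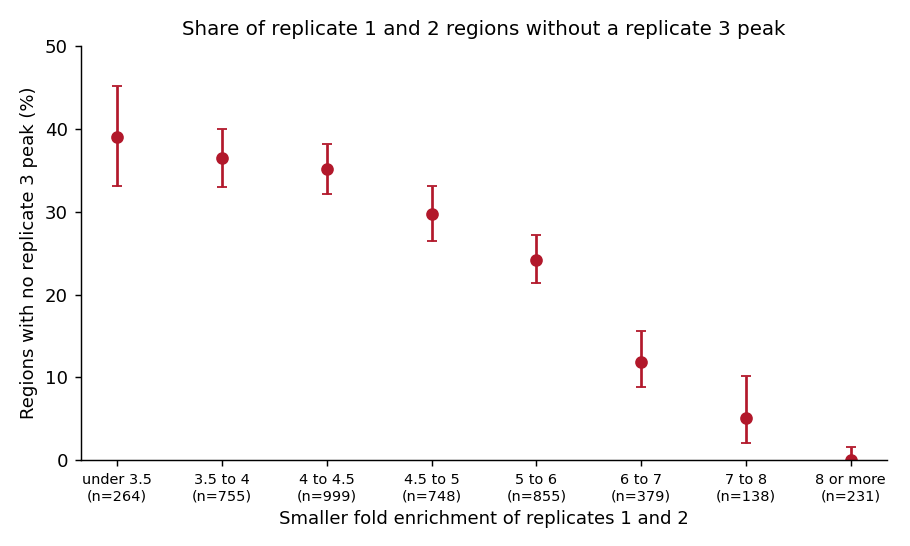
Share of regions with peaks of replicates 1 and 2 that held no replicate 3 peak (vertical, percent), by the smaller fold of replicates 1 and 2 (horizontal, 8 classes), with Clopper-Pearson 95% intervals as bars and the number of regions under each class. The share was 39.0% under a fold of 3.5 and 0% at 8 or more.

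Weak calls were possible in replicate 3. Where its background was at the genome-wide level, its lowest called peak had a pileup of 12 and a fold of 2.48, or 0.394 per 1000000 tags, against 0.831 in replicate 1 and 0.589 in replicate 2. In 1208 of the 1210 members the folds of both replicates 1 and 2 were above 2.48. Called peaks at the genome-wide background of replicates 1 and 2 always had folds above 2.48, so there the calling itself set this outcome. The value of 2.48 also applies only where replicate 3 was at its own genome-wide background. The count therefore cannot show whether replicate 3 could have called a peak at the members. Folds are not on one scale across libraries of different depth, and the coverage of replicate 3 at the members was not analysed here. The lack of a call was also not equal between libraries. Of regions of replicates 1 and 2, 27.7% lacked replicate 3 (95% interval 26.4 to 29.05), although it had the most peaks, and of the 3846 regions of replicates 1 and 3, 17.9% lacked replicate 2 (16.7 to 19.1). Of the 9074 regions of replicates 2 and 3, 65.2% lacked replicate 1 (64.2 to 66.2), which had the fewest peaks.

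The caller's background was lower at the members than in regions of all 3 replicates. The background that the caller set for each peak follows from its pileup and fold, and it is never below the genome-wide mean of the library. In replicate 1, 410 members or 33.9% (95% interval 31.2 to 36.6) were at that lowest level, against 443 or 14.0% (12.8 to 15.3) of regions of all 3 replicates. In replicate 2 the shares were 41.5% (38.7 to 44.3) and 16.8% (15.5 to 18.1). The median background was 1.15 and 1.11 times the genome-wide level at the members in replicates 1 and 2, and 1.62 and 1.63 times in regions of all 3 replicates. In regions of replicates 1 and 3 without 2 it was 1.22 times in replicate 1 (1.15 to 1.31), near the members (1.13 to 1.22). In regions of replicates 2 and 3 without 1 it was 1.45 times in replicate 2 (1.42 to 1.46), above the members (1.06 to 1.16). The background belongs to the same calls that chose the members, so this is a description. It was set over a 10 kb range from the reads of the same library, so the peak's own reads can enter it. In replicate 1, regions of all 3 replicates had a median pileup of 12 at the lowest level and 16 above it. In replicate 2 these were 16 and 22. A peak called over a higher background needs a higher pileup, so these pileups cannot show whether the peak's own reads raised the background. Whether the background measures the surroundings alone was not tested. The background exceeded 10 times the genome-wide level in 2 members, the one on chromosome 9 named above, at 219 times in replicate 1, and chr6:47667803-47668201, at 12.5 times.

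**Figure D3:**
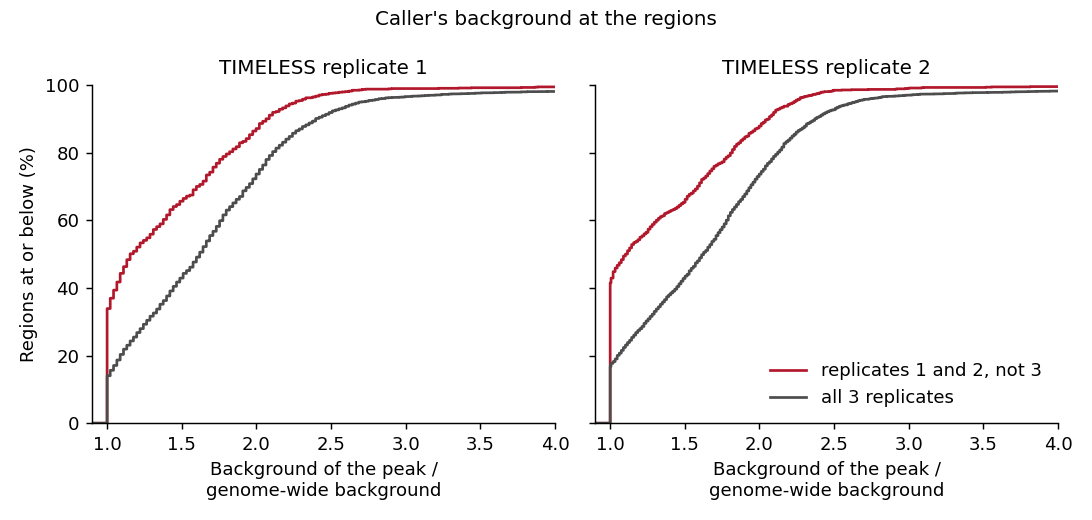
Cumulative share of regions (vertical, percent) by the caller's background at the region divided by the genome-wide background of the library (horizontal, drawn up to 4), in TIMELESS replicates 1 and 2, for regions of replicates 1 and 2 without 3 and for regions of all 3 replicates. The step at 1 holds 33.9% and 41.5% of the first group and 14.0% and 16.8% of the second.

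Members were narrow. The merged region had a median width of 493 bp (95% interval 483 to 503), with quartiles of 400 and 603 bp, against 635 bp (625 to 647) and quartiles of 510.5 and 832 bp in regions of all 3 replicates. Regions of all 3 replicates are merged from at least 3 peaks and members from at least 2, so the merged widths do not rest on equal numbers of peaks. The single peaks of each library were narrower at the members too. The replicate 1 peak had a median of 351 bp at the members and 402 bp in regions of all 3 replicates, and the replicate 2 peak had 381 and 486 bp. Regions of replicates 1 and 3 without 2 had a median merged width of 520 bp (500 to 537), with a replicate 1 peak of 319 bp. Regions of replicates 2 and 3 without 1 had 549 bp (541 to 556), with a replicate 2 peak of 369 bp. A width of 1 kb or more was reached by 9.90% and 9.10% of these regions and by 1.57% of members. In 1204 members each library had a single peak. The summits of replicates 1 and 2 lay a median of 93 bp apart at the members, with 53.4% within 100 bp (95% interval 50.5 to 56.2), and 79 bp apart in regions of all 3 replicates, with 58.2% within 100 bp (56.5 to 59.9).

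**Figure D4:**
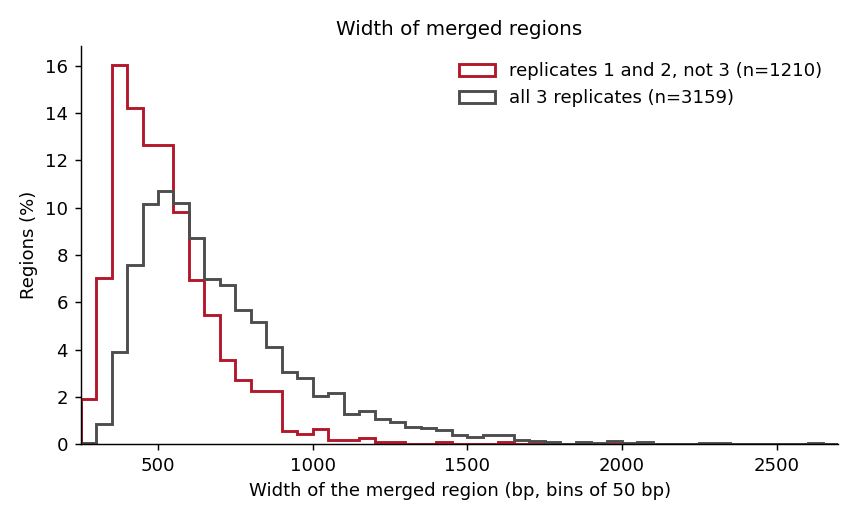
Width of merged regions (horizontal, bp, bins of 50 bp) as a share of each group (vertical, percent), for regions of replicates 1 and 2 without 3 and regions of all 3 replicates. A width of 1 kb or more was reached by 19 of 1210 regions in the first group and 421 of 3159 in the second.

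Only 19 members were 1 kb wide or more. The widest was chr16:75306103-75307731, of 1629 bp, inside Robo2, a receptor for the axon guidance cue Slit, with a pileup of 18 in both replicates and folds of 4.82 and 4.17. The next was chr9:74685207-74686608, of 1402 bp, 176.0 kb from Onecut1, a homeobox transcription factor gene. The member chr4:18222464-18223757 had 1294 bp and lay 105.6 kb from Mmp16, a membrane-bound matrix metalloproteinase gene, and chr12:84883178-84884423 had 1246 bp and lay 7.24 kb from Ltbp2, of the latent TGF-beta binding protein family. The fifth, chr16:67563527-67564718, had 1192 bp and lay inside Cadm2, a synaptic adhesion gene, with folds of 5.59 and 3.84. All 5 had folds under 6 in both libraries.

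Members had a replicate 3 peak nearby less often than regions of all 3 replicates had another one. The nearest replicate 3 peak lay a median of 6153.5 bp from the member. It was within 1000 bp in 152 members or 12.6% (95% interval 10.7 to 14.6), and within 10000 bp in 706 or 58.3%. For the comparison, peaks that overlap the region itself were left out. No replicate 3 peak lay within 10 kb of 41.7% of members (38.9 to 44.5) and 35.4% of regions of all 3 replicates (33.8 to 37.1). Within 50 kb there was none for 12.6% of members (10.7 to 14.6) and 8.26% of regions of all 3 replicates (7.33 to 9.28). The difference was not particular to replicate 3. No other replicate 1 peak lay within 10 kb of 95.5% of members (94.1 to 96.6) and 92.2% of regions of all 3 replicates (91.2 to 93.1). For replicate 2 these shares were 81.9% (79.6 to 84.0) and 76.0% (74.5 to 77.5). Neighbouring members lay a median of 1336.7 kb apart, and 4 of 1191 neighbouring pairs were within 10 kb. This spacing was not compared with that of other regions. Within 10 kb of a region of all 3 replicates there were 31 members. No member was closer than 2419 bp to an input peak.

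The 12 members with the largest smaller fold had pileups of 14 to 25 in replicate 1 and 19 to 46 in replicate 2. The first was chr16:13657681-13658267 in Parn, a ribonuclease that shortens poly(A) tails, with a pileup of 18 in replicate 1 and 22 in replicate 2 and folds of 8.30 and 7.87. Its nearest replicate 3 peak was 33470 bp away. The second, chr16:36323185-36323652 in Cstdc6, of the cystatin family of protease inhibitors, had pileups of 17 and 24 and folds of 7.86 and 8.55. The third, chr10:6630427-6630917, had the highest pileups of the 12, at 25 and 46, with folds of 7.77 and 8.66. It lay 127.9 kb from Oprm1, the mu opioid receptor gene, and 907 bp from a replicate 3 peak. In these 3 members the libraries differed in fold by less than 1.

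The other 9 of the 12 had no replicate 3 peak within 5000 bp. Those inside genes were chr14:22755099-22755569 in Lrmda (folds 7.86 and 7.53), chr13:92496320-92496741 in Zfyve16, an endosomal protein gene (7.86 and 6.84), and chr5:86426360-86426726 in Tmprss11a, a membrane serine protease gene (6.55 and 7.87). Stag1, which encodes a subunit of the cohesin ring that holds sister chromatids together, held chr9:100615186-100615628 with pileups of 18 and 19. Outside genes, chr6:7826987-7827423 lay 18.0 kb from C1galt1, an enzyme gene of O-glycan synthesis (7.43 and 9.24), and chr2:168611455-168611991 lay 10.1 kb from Nfatc2, a calcium-regulated transcription factor gene (6.99 and 7.53). The members nearest to Alx1 (122.1 kb), Oxgr1 (45.3 kb) and Sobp (3.78 kb) had smaller folds of 7.18, 7.16 and 6.84. No theme was tested among these genes.

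Taken over all folds, members fell inside genes about as often as regions of all 3 replicates. The midpoint lay in a protein-coding gene in 375 members or 31.0% (95% interval 28.4 to 33.7), against 29.03% (27.4 to 30.6) of regions of all 3 replicates. It lay in any annotated gene in 39.1% (36.3 to 41.9), against 38.1% (36.4 to 39.8), and 98 members lay in noncoding genes alone. The intervals overlap in each case, and the coding share was above that of regions of all 3 replicates on 10 of 19 chromosomes. Among members the share inside coding genes grew with the smaller fold, with 20.9% under 4 (16.9 to 25.4), 33.5% from 4 to 5 (29.6 to 37.5), 39.1% from 5 to 6 (32.4 to 46.1) and 44.2% at 6 or more (30.5 to 58.7, n = 52). In regions of all 3 replicates the same classes had 23.7%, 26.5%, 33.2% and 34.3%. Members at the genome-wide background in both libraries lay inside coding genes in 43.1% of cases (37.9 to 48.5, n = 350), against 26.0% (23.1 to 29.1) of the other 860. In regions of all 3 replicates the same split gave 37.0% (31.7 to 42.5, n = 322) and 28.1% (26.5 to 29.8, n = 2837). Fold and background are linked, and their parts in the share were not tested.

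Far from genes, members again resembled regions of all 3 replicates. Of members outside coding genes the median distance to the nearest one was 77.8 kb, against 84.3 kb, and 9.59% of members (95% interval 7.99 to 11.4) and 9.40% of regions of all 3 replicates (8.41 to 10.5) lay more than 500 kb from any coding gene. By chromosome, members made up between 23.2% of regions of replicates 1 and 2 on chromosome 1 (82 members, interval 18.9 to 27.99) and 33.8% on chromosome 9 (70 members, 27.4 to 40.7), and each chromosome's interval held 27.7%. None overlapped a miRNA hairpin of the RefSeq table, which also has no chromosome 18, and 4 lay within 10 kb of one.

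Few members were near gene ends. The midpoint was within 1 kb of either end of a coding gene in 11 members or 0.909% (95% interval 0.455 to 1.62), against 24 or 0.760% (0.487 to 1.13) of regions of all 3 replicates. Distances to genes here and in the next paragraph are taken from the midpoint. By the smaller of the folds the highest was chr19:11392807-11393292, with pileups of 15 and 20 and folds of 6.22 and 7.18. It overlapped the end of Ms4a4a, of a family of membrane proteins of immune cells, with its midpoint 134 bp outside. The member chr3:135342750-135343231 overlapped the end of Slc9b2, a sodium and proton exchanger gene, with its midpoint 145 bp outside (6.55 and 5.82). Myrip, a linker of vesicles to myosin motors, had chr9:120476161-120476520 at 239 bp (6.12 and 6.16). Paip1, a partner of poly(A)-binding protein in translation, had chr13:119427783-119428325, whose midpoint lay 277 bp from the gene. There replicate 1 had a pileup of 11 and a fold of 5.24, and replicate 2 a pileup of 32 and a fold of 9.60, the widest difference between the libraries among the named members.

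Adamts12, a metalloproteinase gene, had a member 952 bp upstream of its start with folds of 4.84 and 4.79, and Spata19, a testis gene, one 767 bp upstream with 4.58 and 4.45. The olfactory receptor gene Olfr279 had one 721 bp upstream, with pileups of 8 and 12. The calcium-binding protein gene S100a11 held one 780 bp inside its end (5.90 and 4.45). Ripor1, an inhibitor of RhoA signalling, had one 988 bp away (4.94 and 5.21), whose nearest replicate 3 peak was 479225 bp off, the farthest of any member. The tenth lay in the predicted gene Gm40349 and is the member over the Gm31160 promoter printed above, and the eleventh, named outside the rule because it completes the count, lay 334 bp from Gm36028. Start sites of all gene types were compared on the 18 chromosomes of the promoter table, without chromosome 18. Within 1 kb of an annotated start of any gene type there were 11 members of 1168, or 0.942% (0.471 to 1.68), against 24 of 3038, or 0.790% (0.507 to 1.17).

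Members were found in or within 3 kb of 397 of 20665 protein-coding genes, or 1.92%, and regions of all 3 replicates in 872, or 4.22%. Of the 397 genes, 301 held no region of all 3 replicates and 96 held one. These 96 were 24.2% of genes with a member and 11.01% of genes with a region of all 3 replicates. A single member was the rule, in 374 of the 397. Genes with a member were long, with a median of 154.6 kb, against 127.5 kb for genes with a region of all 3 replicates and 17.5 kb for all coding genes. In the longest of 10 length classes, from 109.1 kb upward, 11.1% of genes held a member (95% interval 9.80 to 12.6) and 23.1% a region of all 3 replicates (21.3 to 24.95), and in the shortest class 0.0968% and 0.532% did.

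**Figure D5:**
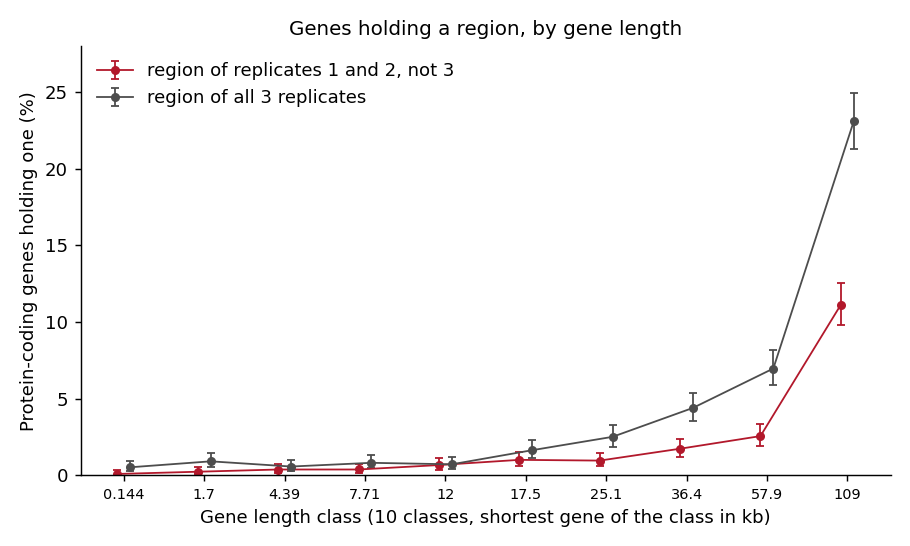
Share of protein-coding genes that held a region in the gene or within 3 kb (vertical, percent) in 10 classes of gene length (horizontal, labelled with the shortest gene of the class in kb), for regions of replicates 1 and 2 without 3 and regions of all 3 replicates, with Clopper-Pearson 95% intervals as bars. In the longest class the shares were 11.1% and 23.1%.

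Rbms3, an RNA-binding protein gene of 1057.2 kb on chromosome 9, held the most members, 4 in its body, beside 2 regions of all 3 replicates. By the smaller fold, which also ranks the members of the genes and lists below, its highest member was chr9:117114128-117114477, with a pileup of 11 and a fold of 5.24 in replicate 1 and a pileup of 20 and a fold of 7.18 in replicate 2. Ncald, which encodes the neuronal calcium sensor neurocalcin delta, held 3 members and no region of all 3 replicates. They were chr15:37763678-37764440 (folds 7.77 and 6.50), chr15:37542072-37542650 (7.86 and 5.36) and chr15:37482808-37483129 (4.47 and 5.47). Pde4d and Robo2 also held 3 each, beside 1 and 2 regions of all 3 replicates. These 4 genes, of 426.3 kb or more, were the only ones with over 2 members in their bodies.

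A further 18 genes held 2 members each, for a total of 22 with at least 2. Those named by the rule were Myo16, an unconventional myosin gene (highest member 5.68 and 7.43), Prkag2, a regulatory subunit gene of the energy sensor AMPK (7.68 and 5.58), Diaph3, an actin-nucleating formin gene (5.55 and 6.03), Adarb2, a brain member of the RNA editing enzyme family (5.24 and 6.50), Arfgef3 (4.81 and 7.18 at one member, 5.24 and 5.47 at the other) and the proteoglycan gene Spock1 (5.24 and 5.47). Prkag2, Diaph3 and Arfgef3 held no region of all 3 replicates. By comparison 137 genes held 2 or more regions of all 3 replicates. Of the 10 genes with the strongest member and no region of all 3 replicates, those not yet named were Tle7 (6.55 and 7.18), Ccdc90b, a mitochondrial protein gene (6.83 and 6.36), and the histone gene H2bc6, annotated over 37.5 kb (6.36 and 7.04), beside Parn, Cstdc6, Zfyve16, Stag1, Tmprss11a, Ncald and Ms4a4a.

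The gene lists were described by counts beside the 1.92% of all coding genes, and beside the 11.1% of the longest length class, since the median length of every list was above that of all coding genes. The medians of the GABA-A receptor list (89.6 kb) and of the list of protein kinase A, Epac and CREB (71.6 kb) fall in the class below. In that class, of 57.9 to 109.0 kb, 2.57% of genes held a member. Synaptic adhesion molecules, which join the pre- and postsynaptic membranes, held a member in 10 of 43 genes and a region of all 3 replicates in 19. Their median length was 648.9 kb, while the longest length class starts at 109.1 kb, so its 11.1% is not matched to them in length. Tenm2, a teneurin, held 2 members, with folds of 4.94 and 4.85 at the higher. Nrxn3, a presynaptic neurexin, held 1 with folds of 5.68 and 6.84, and Nlgn1, a postsynaptic neuroligin that binds neurexins, held 1 with 6.55 and 5.11. Neither held a region of all 3 replicates. Cadherins and protocadherins, calcium-dependent adhesion proteins, and their partners held members in 5 of 27 genes, as many as held a region of all 3 replicates, and 2 held both. Pcdh15 held 2 members, Fat3 had folds of 6.12 and 6.50, and Cdh13 had 5.24 and 4.10.

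Among ionotropic glutamate receptors there were 3 of 17, against 6 with a region of all 3 replicates. Among them were Grik4, a kainate receptor subunit gene (folds 3.79 and 4.79), and Grid1 (3.93 and 3.78). The Grik4 member, chr9:42679484-42680004, lay 338724 bp from the nearest replicate 3 peak. Among metabotropic glutamate receptors 2 of 8 genes held one, Grm5 (5.15 and 4.70) and Grm8 (5.18 and 4.39), against 4 with a region of all 3 replicates. Among GABA-A receptor subunits 2 of 16 did, against 1 with a region of all 3 replicates, and Gabrg3 had folds of 3.40 and 4.22.

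The study's title concerns cAMP signalling. Enzymes that make or degrade cAMP held a member in 2 of 26 genes and a region of all 3 replicates in 3. Pde4d, a phosphodiesterase that degrades cAMP, held chr13:109513991-109514712 with pileups of 14 and 16 and folds of 5.90 and 5.64, chr13:108852613-108852992 with folds of 5.24 and 6.84, and chr13:109557556-109558076 with 4.58 and 4.10. Pde3a held chr6:141288238-141288902 with 4.81 and 4.45. Pde4b held no member and 1 region of all 3 replicates. In the list of cAMP effectors, which covers protein kinase A, Epac and CREB, 2 of 28 held a member, against 4 with a region of all 3 replicates and none with both. Prkar2b, a regulatory subunit gene of protein kinase A, had 6.55 and 5.47 at chr12:31974242-31974733, and Prkaca, a catalytic subunit gene of 23.5 kb, had 5.24 and 6.50 at chr8:83982754-83983277.

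No circadian clock gene of 26 held a member, against 1 with a region of all 3 replicates. Of the replication fork and checkpoint list, Stag1 alone of 36 genes held one, as named above. Timeless held neither. With median lengths of 32.0 and 21.9 kb these lists hold shorter genes, and both shares are near the 1.92% of all coding genes.

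Among channels, potassium channel genes held a member in 3 of 29 cases, Kcnq5 (4.37 and 5.47), Kcnd2 (4.64 and 3.98) and Kcnk2 (3.56 and 4.91), against 4 with a region of all 3 replicates. Calcium channel genes held one in 1 of 19, Cacna1a, the pore subunit of P/Q-type channels (6.17 and 7.09), against 3. At the synapse, the active zone list held 2 of 27, Unc13c, a vesicle priming factor gene with 2 members (6.12 and 5.13 at the higher), and Rims2, an active zone scaffold gene (5.68 and 8.06). Neither gene held a region of all 3 replicates, which 6 other genes of the list did. Among 19 postsynaptic scaffold genes 3 held a member and 7 a region of all 3 replicates. All 3 holders of a member held both, namely Magi2 with 2 members (4.75 and 6.56), Magi3 (6.12 and 7.87) and Dlgap2 (6.12 and 6.50). Axon guidance genes held a member in 6 of 31 cases and a region of all 3 replicates in 8. Those with a member included Robo2, the netrin receptor gene Unc5c (6.01 and 7.32) and the netrin receptor gene Dcc (5.61 and 6.50). Nrg3, of the neuregulin growth factors, was the only 1 of 8 in its list with a member (4.94 and 4.39), against 2 with a region of all 3 replicates. Across the 15 lists, 43 of 359 genes on these chromosomes held a member, each within the gene body. Whether members lie in exons or introns was not analysed here.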

How the data were processed

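TIMELESS ChIP and input libraries of mouse hippocampus were represented by 1 deposited peak list each. Per the file headers, the authors called peaks with MACS 2.1.2 on each library alone, with no control, at a q value cutoff of 0.05 and 1 tag kept per position. The submitters' processing notes name mm10, Bowtie2 2.4, SAMtools 1.14, MACS2 2.1.1 and deepTools 2.0. The deposited pileup is a signal, the fragment coverage at the summit, and it was not divided by library size. The fold enrichment, as deposited, is a ratio to the background of the same library, and the deposited p and q values are −log10 values. The labels and headers give no pooling of libraries.

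From these, peaks on chromosomes 1 to 19 were merged at an overlap of 1 bp with Python 3.11.15, pandas 2.3.3, NumPy 2.4.6 and SciPy 1.17.1, and figures were drawn with matplotlib 3.10.9. The value of a library in a region is that of its peak with the highest fold. The background of a peak was computed as pileup plus 1, divided by fold, minus 1. Its smallest value in each library equalled kept tags times fragment length over the caller's genome size within 0.01, and peaks within 0.01 of that were taken as at the genome-wide background. Medians have 95% intervals from binomial ranks. Gene positions (47042 genes, 20665 of them protein-coding), promoter windows and miRNAs came from RefSeq tables of GRCm38.p6, the build of the files. Merging and overlap steps were tested on simulated data. Of 375 list entries in 15 lists, 374 matched and 360 lay on these chromosomes.

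Named genes were the 12 members with the largest smaller fold, the 10 genes with most members, the 10 with a member and no region of all 3 replicates and the largest smaller fold, 10 members within 1 kb of a coding gene end, up to 3 genes of each list, the 5 widest members, Pde4b and Timeless; some genes that this rule names are not reported here. Members and lists were chosen with earlier results of these data known. With peak calls as the rule and no condition to compare, no p-value was computed. The alternatives changed the overlap, the q and fold thresholds, the distance to replicate 3 peaks, the input filter, the chromosomes, the summit distance and the gene windows, or left out replicate 3.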

Additional observations from a re-analysis of the deposited data

How the results depend on the processing

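Of 86 alternative values of 9 results, 56 stayed within limits, which were 1.5 times for a count, the 95% interval for a share and the SD between replicates 1 and 2 for a median. Without replicate 3 there were 4336 regions, in 1163 genes, with a median width of 541 bp, a median replicate 2 pileup of 19 and median folds of 5.10 and 5.07 in replicates 1 and 2, since regions of all 3 replicates then enter. At −log10 q of at least 5 in all 3 lists there were 353 regions, 36.5% of them in coding genes, in 141 genes, with pileups of 15 and 18 and folds of 5.93 and 5.47. At that threshold in replicates 1 and 2 alone there were 236 regions, 38.6% in coding genes, in 102 genes, with a width of 461.5 bp, pileups of 14.5 and 18 and folds of 6.03 and 5.47. At fold of at least 5 in replicates 1 and 2 there were 259 regions, 40.2% in coding genes, in 117 genes, with a width of 464 bp and folds of 5.77 and 5.82. With summits within 200 bp the median width was 458 bp. The share in annotated genes of any type was 39.1%, and the share within 3 kb of a coding gene end was 4.38%. An overlap of 100 bp kept 95.5% of the members, and no replicate 3 peak within 1 kb kept 87.4%. Leaving out replicate 1 or 2 gives no value, since the rule needs both. No paired analysis was possible because the groups share fewer than 2 replicate numbers and no result comes from a test. Of the TIMELESS libraries, depth limits replicate 1 most, where a peak needed a pileup of at least 7 at the genome-wide background.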

Other observations

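Chromosomes X and Y were outside the rule. By the same steps 44 regions of replicates 1 and 2 without replicate 3 lay on chromosome X, beside 220 of all 3 replicates, or 16.7% (95% interval 12.4 to 21.7), and 30 on chromosome Y, beside 97, or 23.6% (16.5 to 32.0). The share on chromosome X was below the 27.7% of chromosomes 1 to 19, which its interval does not hold, and the difference was not tested. Median folds on chromosome X were 4.69 and 4.47 in replicates 1 and 2, close to those on the other chromosomes.

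Of the 98 members that lay in noncoding genes alone, 90 lay in long noncoding RNA genes. Among all members, those within 1 kb of the start of a long noncoding RNA gene, inside it or upstream, were at Gm13383 (folds 4.37 and 5.82), I0C0044D17Rik (5.24 and 5.13), LOC115490388 (4.59 and 3.57), Gm40898 (4.37 and 4.79) and Gm41042 (5.24 and 5.47), named after their values were seen.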
